A study of Danio rerio with 4 samples.

Results

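The genes *tpi1b*, *gapdhs* and *pkm2a* encode glycolytic enzymes, and a region at each of them was tested by ChIP-qPCR in the study. The Hif-1α peaks described here are those of the deposited *vhl* and wild-type peak lists with at least 1 base within 50 kb of these 3 regions. They number 8, of 6457 peaks in both lists. Of these, 7 belong to the 5177 *vhl* peaks and 1 to the 1280 wild-type peaks. The study had chosen the regions among its highly significant *vhl* peaks with a hypoxia response element, so the strength and position of the *vhl* peaks over the regions entered that choice and are given as a description only.

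Hif-1α was immunoprecipitated with a custom antibody from a pool of *vhl* mutant embryos and a pool of wild-type embryos, all of a TL/LWT mix, at 4 days post fertilisation (dpf). The yolk had been removed from the embryos. The mutants were homozygous for the hu2117 allele of *vhl*, and carried the *phd3:gfp* i144 transgene, a hypoxia reporter by whose fluorescence they were sorted from their siblings. The methods of the paper do not state whether the wild-type embryos carried the transgene or a single hu2117 allele. Besides the ChIP library, input chromatin without antibody was sequenced from each genotype. With 1 deposited library of each kind per genotype, no value has a replicate error, and no test between the genotypes was possible. Whole embryos were used, so stronger binding and binding in more cells cannot be told apart.

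Hypoxia Inducible Factor (HIF) is a dimer of an oxygen-regulated α subunit and a stable β subunit. The Vhl protein is part of a ubiquitin ligase that keeps the α subunit scarce in well-oxygenated cells. In its absence the α subunit builds up and the dimer binds hypoxia response elements, whose core is RCGTG (ACGTG or GCGTG). In mammalian cells HIF-1 is well known for raising the expression of glycolytic enzymes, through which cells make ATP without oxygen. *tpi1b* encodes a triosephosphate isomerase, which interconverts dihydroxyacetone phosphate and glyceraldehyde 3-phosphate. *gapdhs* encodes a glyceraldehyde-3-phosphate dehydrogenase, the enzyme of the step that follows, and takes its name from the isozyme of mammalian sperm. *pkm2a* encodes a muscle-type pyruvate kinase, which catalyses the last step of glycolysis and yields pyruvate and ATP.

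In Zv9 coordinates the tested regions are chr16:13991186-13991286 for *tpi1b*, chr16:47904897-47904997 for *gapdhs* and chr18:725088-725188 for *pkm2a*. The primers of the study, which define the DNA that was followed at each site, are shown 5′ to 3′ for the 3 genes.
*tpi1b* forward: cataaacgcagtcgatgtgaa
*tpi1b* reverse: atttgacaggcctcgaacac
*gapdhs* forward: ccttcgtgatggattgctc
*gapdhs* reverse: ctcacctccttcagtgatgct
*pkm2a* forward: ggtgaccgtttgagtgtgtg
*pkm2a* reverse: tcaagcgtcttcatcgtcag
The 6 primers are 19 to 21 nucleotides long. None of them holds ACGTG or GCGTG on either strand, as against 3 of the 48 primers of the whole list (6.25%). The letters between the primers were not read here, because no Zv9 sequence was at hand. In the RefSeq annotation of another assembly, GRCz12tu, the nearest protein-coding genes on either side are *lpcat3* and *leng8* for *tpi1b*, *tmem147* and *si:rp71-77l1.2* for *gapdhs*, and *parp6a* and *dhdh.2* for *pkm2a*, which is listed there as *pkma*. Flanking peaks are therefore named below by the tested gene and their distance from it, and were not assigned to a gene.

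For each peak the lists give the number of ChIP reads left after removal of duplicates (tags), the fold enrichment over local background, a score that rises as the caller's p-value falls (the negative log10 of p, multiplied by 10), and the percentage of false discoveries expected at that score (FDR). The *vhl* ChIP library kept 16145214 tags for peak calling and the wild-type ChIP library 7554444, a ratio of 2.14. Scores, fold enrichments and FDR values were calculated within a genotype and rank peaks only within their own list. Intervals are 95% intervals and cover counting error only.

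In *vhl* mutants each of the 3 regions lay within 1 long peak. The summit was 49 bp from the start of the region in all 3 cases, as in windows set around the summits of these same peaks, so that the position of the summit in the region is not a finding. At *tpi1b* this peak ran from 13990325 to 13991714 on chromosome 16. It held 490 tags, or 30.3 tags per 1000000 tags kept (interval 27.7 to 33.2), with a score of 2165 and a fold enrichment of 140. At *gapdhs* the peak ran from 47903762 to 47905342 on chromosome 16 and held 741 tags, or 45.9 per 1000000 (interval 42.7 to 49.3), with a score of 2963 and a fold enrichment of 104. At *pkm2a* it ran from 724699 to 726438 on chromosome 18 and held 447 tags, or 27.7 per 1000000 (interval 25.2 to 30.4), with a score of 2044 and a fold enrichment of 185. The FDR was 0 for all 3 peaks and for 6 of the 7 *vhl* peaks in the windows, as for 26% of the *vhl* list. By tags and by score the order was *gapdhs*, *tpi1b* and *pkm2a*, and by fold enrichment it was the reverse. The counting intervals of *tpi1b* and *pkm2a* overlapped, whereas that of *gapdhs* lay above both.

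Among the 5177 *vhl* peaks the 3 peaks ranked 25 (*tpi1b*), 9 (*gapdhs*) and 38 (*pkm2a*) by score. On chromosome 16, which carried 221 *vhl* peaks, *gapdhs* had the highest score and *tpi1b* the next. On chromosome 18, with 232 *vhl* peaks, *pkm2a* had the highest. Ranked by fold enrichment the order within the list changed, to 165 for *tpi1b*, 321 for *gapdhs* and 59 for *pkm2a*.

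**Figure D1:**
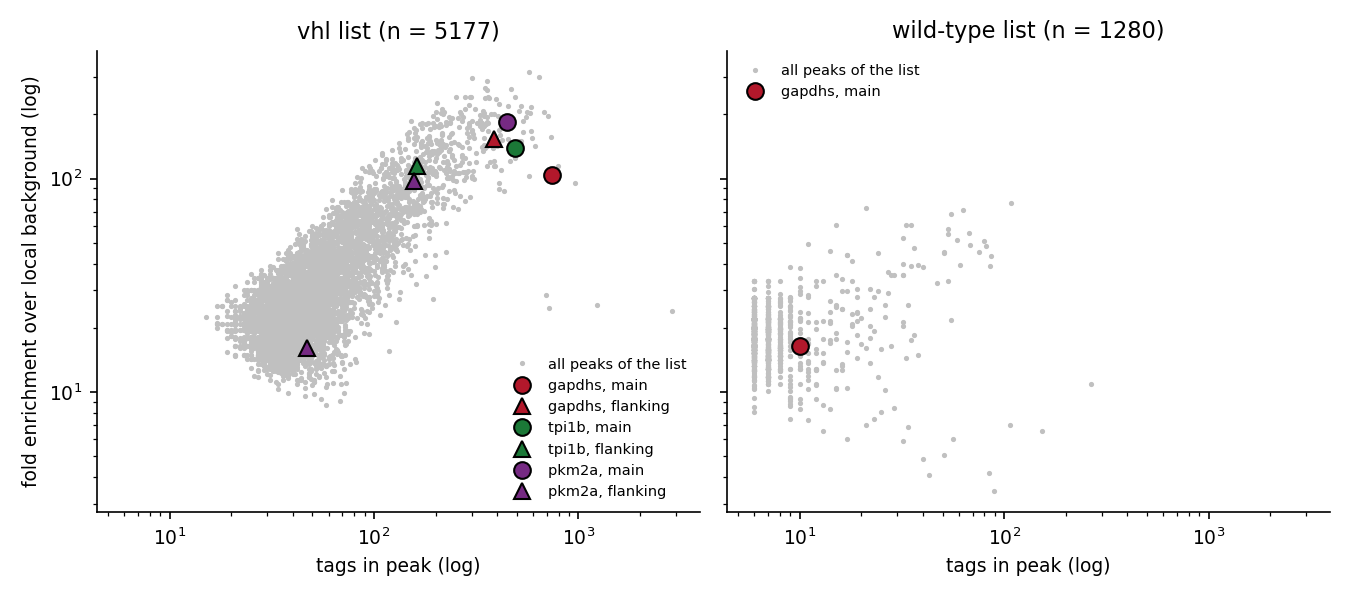
Fold enrichment against the number of tags, on log axes, for every peak of the *vhl* list (left) and of the wild-type list (right), with the peaks at the glycolytic genes in colour, circles for the peaks that cover the tested regions and triangles for flanking peaks. In the *vhl* list the *gapdhs* circle stands well to the right with 741 tags. Its fold enrichment of 104 lies below those of the *tpi1b* and *pkm2a* circles. In the wild-type list the *gapdhs* peak of 10 tags lies among the bulk of the list.

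The peaks over the tested regions were also long, and their summits were off centre. They measured 1390 bp at *tpi1b*, 1581 bp at *gapdhs* and 1740 bp at *pkm2a*, whereas the median *vhl* peak measured 567 bp. Length was not particular to them. At the 17 other regions tested by ChIP-qPCR, leaving out *egln3*, the *vhl* peaks measured 705 to 1947 bp (median 1120). Among all 20, *pkm2a* ranked 4, *gapdhs* 5 and *tpi1b* 8 by length. At *tpi1b* the summit lay 911 bp into the peak, at 65.5% of its length, and at *gapdhs* 1185 bp into it, at 75.0%. At *pkm2a* it lay on the other side, 439 bp into the peak, at 25.2% of its length. For the middle 50% of all *vhl* peaks this position was between 42.9% and 57.8%, and only 5.04% of the list had a summit as far from the middle as that of *pkm2a*. The peaks at *gapdhs* and *tpi1b* thus extended mainly towards lower coordinates from the tested region and the peak at *pkm2a* towards higher ones, as the plot of peak extents shows. Summit positions were not compared with those at the other tested regions or in peaks of similar length. The weaker flanking peak of *pkm2a*, described below, also had its summit off centre, at 24.2% of its length.

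**Figure D2:**
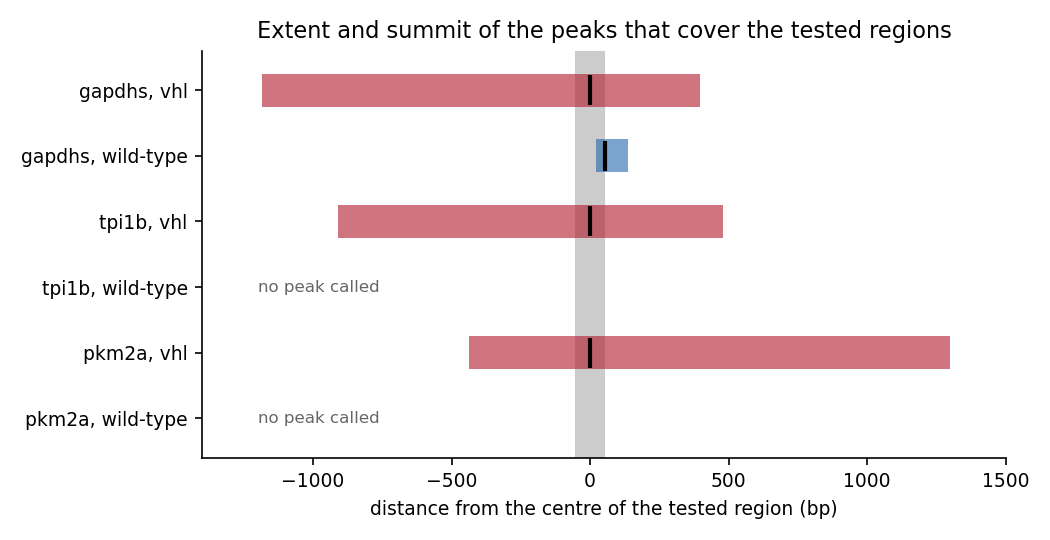
Extent of the peaks that cover the tested regions, as distance in bp from the centre of each region, in *vhl* (red) and wild-type (blue), with the summit as a black line and the tested region as a grey band. The *gapdhs* and *tpi1b* peaks reach further to the left and the *pkm2a* peak further to the right, and only *gapdhs* has a wild-type peak.

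Each of the 3 regions had at least 1 further *vhl* peak within 50 kb, 4 in all. In the whole *vhl* list, 50.3% of the peaks had another *vhl* peak at this distance from the 100 bp around their summit, and among the 100 peaks with the highest scores 64 did, so a neighbour is common. At least 2 such neighbours, as at *pkm2a*, were found for 21.9% of the list. The closest and strongest pair of the 3 loci was at *gapdhs*. Its flanking peak, from 47908388 to 47909310 on chromosome 16, had its summit 3855 bp from that of the main peak and held 388 tags, or 24.0 per 1000000 (interval 21.7 to 26.5). With a score of 1797 it ranked 51 in the list, and it had a fold enrichment of 154, higher than that of the main peak itself (104). The main peak held 1.91 times as many tags. Of the 100 *vhl* peaks with the highest scores, 10 lay within 10 kb of another of the 100, in 7 pairs by summit distance. The *gapdhs* peaks formed 1 of these pairs. A peak could enter more than 1 pair, as several did on chromosome 4, so the pairs are not separate loci.

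The flanking peaks of *tpi1b* and *pkm2a* had fewer tags, lower scores and lower fold enrichments than their main peaks. At *tpi1b* the flanking peak ran from 14017106 to 14017765, with its summit 26241 bp from the main summit. It held 163 tags (10.1 per 1000000, interval 8.61 to 11.8), with a score of 672 and a fold enrichment of 115, and the main peak held 3.01 times as many tags. At *pkm2a* the nearer flanking peak ran from 716973 to 717574, with its summit 7892 bp from the main summit. It held 157 tags (9.72 per 1000000, interval 8.26 to 11.4), with a score of 712 and a fold enrichment of 97.7, and the main peak held 2.85 times as many. Per kb of its length, however, this flanking peak held 261 tags and the main peak 257. The flanking peaks of *tpi1b* and *pkm2a* had overlapping intervals and ranked 305 and 282 by score.

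The other flanking peak of *pkm2a*, from 675037 to 675959, was much weaker. It held 47 tags (2.91 per 1000000, interval 2.14 to 3.87) at a score of 86.3, and was enriched 16.1-fold with an FDR of 0.56%. Its 47 tags equalled the median of the *vhl* list, and its fold enrichment was below the median of 27.3. It was the member closest to the limit of the window, with its edge 49129 bp from the tested region. The next peak beyond the limit lay 89.2 kb from the *gapdhs* region, with 37 tags, a score of 87.9 and a fold enrichment of 24.7. Around *tpi1b* the next *vhl* peaks were 248 kb away, with 82 tags, and 255 kb away, with 251 tags. The latter had a score of 1378 and a fold enrichment of 241, above the 140 of the main *tpi1b* peak. Around *pkm2a* they were 124 kb away, with 95 tags, and 345 kb away, with 115 tags. Both thus held more tags than the weaker flanking peak inside the window. All 7 *vhl* peaks in the windows had an FDR of 5% or less, as did 77.1% of the list, and 6 had a score of 100 or more, as did 47.9%.

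Taking all *vhl* peaks of a window, the main peak held 75.0% of 653 tags at *tpi1b* (Wilson interval 71.6 to 78.2%), 65.6% of 1129 tags at *gapdhs* (62.8 to 68.3%) and 68.7% of 651 tags at *pkm2a* (65.0 to 72.1%). The windows of *tpi1b* and *pkm2a* thus held almost equal numbers of tags in peaks, and that of *gapdhs* held more. The share in the main peak was lowest at *gapdhs*, where the flanking peak was strongest, though its interval overlapped that of *pkm2a*. Because the regions were chosen for strong *vhl* peaks, a large share in the main peak is not a finding.

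**Figure D3:**
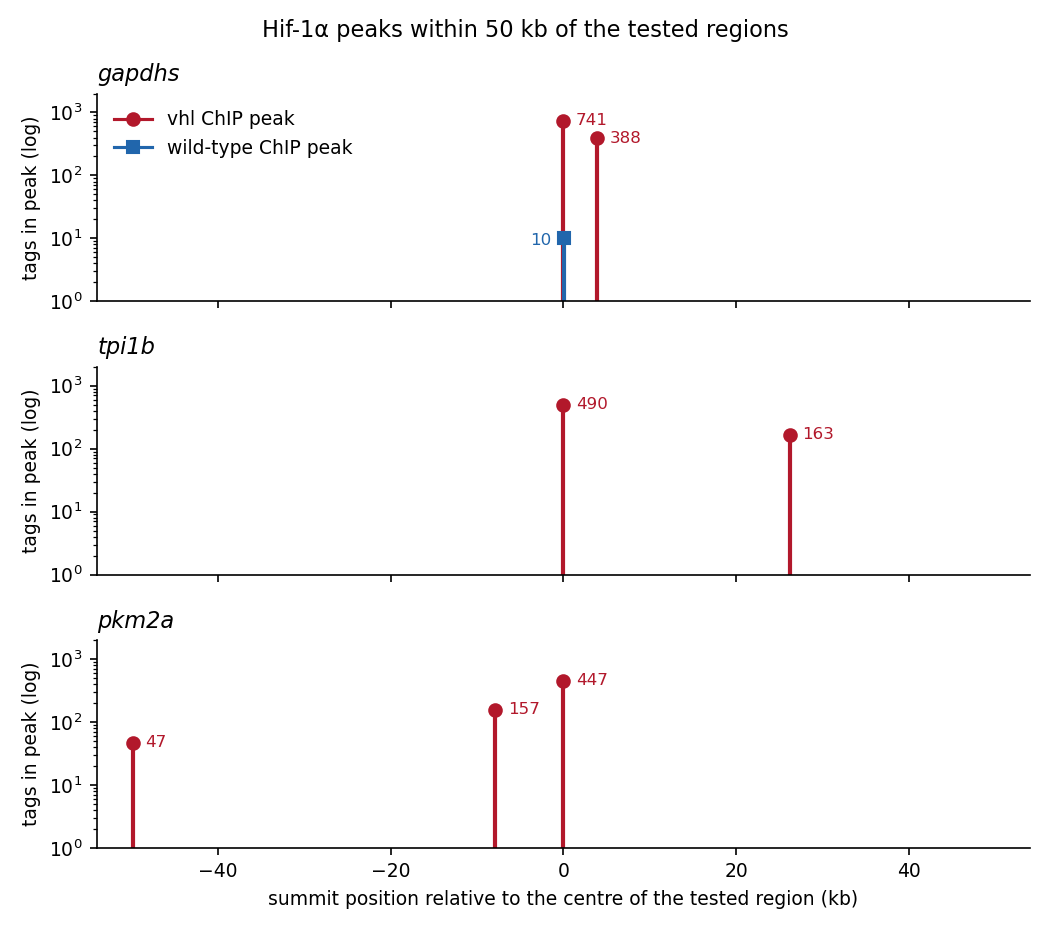
Tags in each peak (log axis) against the position of its summit in kb from the centre of the tested region, for the *vhl* ChIP (red circles) and the wild-type ChIP (blue squares), within 50 kb of each region. The *gapdhs* panel shows a pair of strong *vhl* peaks with 741 and 388 tags and the wild-type peak with 10, and the *tpi1b* and *pkm2a* panels hold *vhl* peaks only.

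In wild-type embryos a peak was called at *gapdhs* only. Of the 7 *vhl* peaks, 1 was overlapped by a wild-type peak by at least 1 bp, against 2.92% of the whole *vhl* list and 32% of the 100 *vhl* peaks with the highest scores. The wild-type peak at *gapdhs* ran from 47904969 to 47905084 on chromosome 16, a length of 116 bp. It lay wholly inside the *vhl* peak, shared 29 bp with the tested region and had its summit 55 bp from the *vhl* summit. With a score of 58.4 it ranked 595 of 1280, near the median of 58.0, and its fold enrichment of 16.4 was below the median of 17.7. Its FDR was 54.4%, and 44.4% of the wild-type list had an FDR of 50% or more, whereas 3.59% had one of 5% or less. Its 10 tags exceeded the median of 7 for the list, and were below the median of 15 for the 161 peaks of the wild-type list (12.6%) with a *vhl* peak at the same place.

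At *gapdhs* the *vhl* peak thus held 741 tags and the wild-type peak 10, or 45.9 and 1.32 tags per 1000000 tags kept (interval for wild-type 0.635 to 2.43). Scaled in this way the *vhl* value was 34.7 times the wild-type value (exact interval 18.7 to 72.6). The ratio compares 2 libraries and not the genotypes, and it rests on peaks of very different length. Per kb of peak and 1000000 tags the *vhl* peak held 29.0 tags and the wild-type peak 11.4, which is 2.54 times as many in *vhl*. Each of these densities is an average over the peak's own length, so they do not describe the same stretch of DNA. The *vhl* tags within the stretch of the wild-type peak were not counted. The *vhl* peak was 13.6 times as long as the wild-type peak. The caller had modelled fragments of 110 bp in *vhl* and of 34 bp in wild-type, the latter shorter than the tags of 35 bp themselves. The part of this in the lengths and in the wild-type calls was not tested.

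No wild-type peak lay within 50 kb of *tpi1b* or *pkm2a*. The nearest one to the *tpi1b* region was 254 kb away and held 63 tags, with a score of 633 and an FDR of 0. The nearest one to the *pkm2a* region was 637 kb away and held 8 tags, with an FDR of 83.3%. At *gapdhs* the next wild-type peak after the overlapping one was 509 kb away, with 6 tags and an FDR of 47.4%. Reduced to the depth of the wild-type library, the main *vhl* peaks would hold 229 tags at *tpi1b*, 347 at *gapdhs* and 209 at *pkm2a*, and the flanking peaks between 22.0 and 182. The lowest number of tags in any wild-type peak was 6, which need not be the number required for a call at a given site. The part of depth in the missing wild-type calls was not tested. The raw wild-type coverage was not analysed here, so the number of wild-type tags at *tpi1b* and *pkm2a* is not known, only that no enrichment was called there.

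The study tested 20 regions by ChIP-qPCR at genes other than *egln3*, each with 1 *vhl* peak over it. Among them *gapdhs*, *tpi1b* and *pkm2a* ranked 1, 9 and 12 by tags, and 20, 19 and 10 by fold enrichment. All 3 fold enrichments lay below the median of the others. *gapdhs* had the most tags of the 20 and the lowest fold enrichment. The 17 other regions had 303 to 731 tags (median 467) and fold enrichments of 142 to 317 (median 188). *tpi1b*, at 140, had the next lowest fold enrichment of the 20, and *pkm2a*, at 185, lay near the median of the others. By number of tags *tpi1b* and *pkm2a*, with 490 and 447, stood on either side of that median. With 3 regions chosen for their strength against 17 chosen in the same way, these are positions within a list and were not tested.

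**Figure D4:**
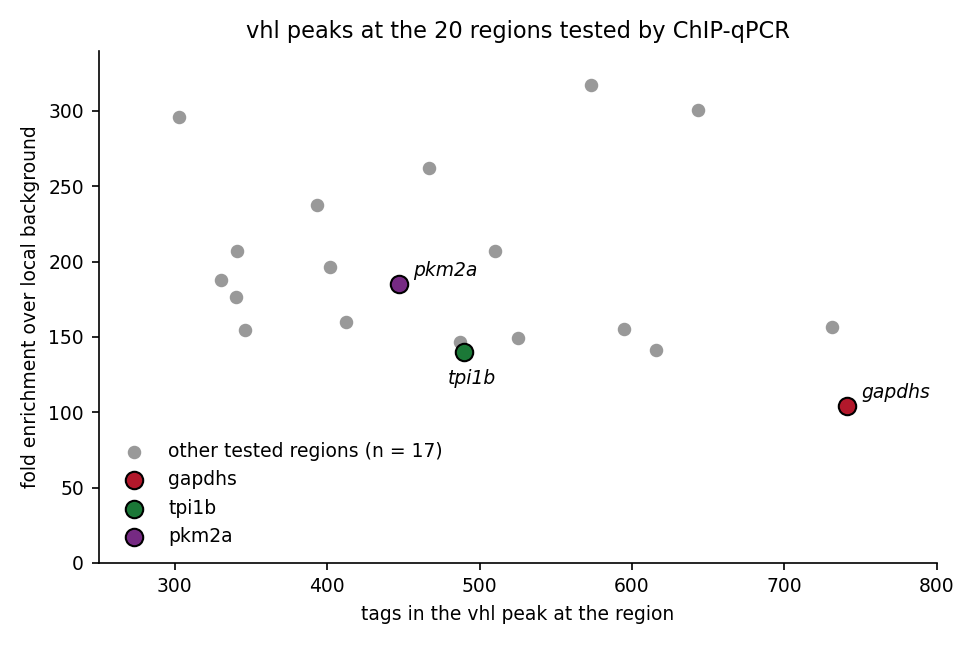
Fold enrichment (linear axis) against tags for the *vhl* peaks at the 20 regions tested by ChIP-qPCR, with the glycolytic enzyme genes in colour and the other 17 regions in grey. *gapdhs* lies at the lower right corner, with 741 tags and a fold enrichment of 104, *tpi1b* lies at the lower edge of the others and *pkm2a* among them.

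Flanking *vhl* peaks within 50 kb were present at 3 of 3 glycolytic enzyme regions, 1 each at *tpi1b* and *gapdhs* and 2 at *pkm2a*, and at 10 of the 17 others, which had 0 to 9 with a median of 2. The highest count, of 9, was at *pfkfb3*, which encodes the enzyme that makes and breaks down fructose 2,6-bisphosphate, an activator of phosphofructokinase, and so a regulator of glycolysis. The peak over its tested region held 595 tags and had a fold enrichment of 155. The highest fold enrichment among the flanking peaks was above that of the main peak, as at *gapdhs*, at 3 of the 13 regions with flanking peaks. Wild-type peaks overlapped the *vhl* peak at 1 of the 3 glycolytic enzyme regions and at 4 of the 17 others. Other genes of the pathway were not located in Zv9 here, and the ChIP-qPCR and microarray measurements of the study were not used here.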

How the data were processed

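The deposited data hold 1 Hif-1α ChIP library and 1 input library per genotype, sequenced with single reads. The methods of the paper mention input in duplicate, and each peak list names 1 input library as its control. Tags of 35 bp that mapped uniquely to Zv9 (danRer7) in CASAVA 1.8.2 were used. Peaks were called per genotype against the input with MACS 1.4.2 at a p-value of 1e-05, keeping at most 1 tag per position. The deposited lists give tags as raw counts, a score, the fold enrichment as a ratio to the local background, the FDR in percent, and the positions, length and summit. The *vhl* and wild-type ChIP libraries held 33429235 and 16780814 mapped reads before duplicates were removed. Nothing placed the genotypes on a common scale, and greater depth and a longer modelled fragment length can each yield more and longer peaks.

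Peaks with at least 1 base within 50 kb of the tested regions were taken from both lists. The text names *tpi1b*, *gapdhs* and *pkm2a* with every such peak, *pfkfb3* for comparison, and gives the other tested regions as ranges. Tags were scaled to 1000000 ChIP tags kept, with exact Poisson intervals. Shares have Wilson intervals. Counting procedures were tested on simulated data. Python 3.11.15 was used, with scipy 1.17.1 for intervals, pandas 2.3.3 and numpy 2.4.6 for tables, and matplotlib 3.10.9. The members and lists were chosen with earlier results of these data known. Windows, overlap rules, score and FDR limits, ranking measures and scaling were varied. Promoter sequences and their motifs were not analysed here.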

Additional observations from a re-analysis of the deposited data

How the results depend on the processing

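The number of *vhl* peaks near the 3 regions was between 5 (window of 25 kb) and 8 (window of 100 kb), against 7, and was 6 with a score of 100 or more. The single wild-type peak, and with it the overlap at *gapdhs*, remained under other overlap rules and windows, but 0 remained with a wild-type score of 100 or more or with an FDR of 5% or less. The ranks of the main *vhl* peaks depended on the measure. By fold enrichment, tags and tags per kb they were 321, 5 and 15 at *gapdhs*, 165, 28 and 91 at *tpi1b*, and 59, 38 and 245 at *pkm2a*. The share of tags in the main peak was 100% at *tpi1b* and 74.0% at *pkm2a* in a window of 25 kb, which loses a flanking peak at each, and at *gapdhs* 62.3% of the summed score. The ratio at *gapdhs* was 74.1 without scaling, 37.2 per 1000000 mapped reads, and 2.54 per kb of each peak's own length and 1000000 tags. The share of *vhl* peaks with a neighbour was 34.9% within 25 kb and 68.1% within 100 kb. Of 39 alternative values, 21 stayed close to the main value and 18 moved. Close meant within a factor of 1.5 for counts and ranks, and within the 95% interval for shares and the ratio. Whether a result changed direction was not assessed. No paired analysis was possible because the labels give no replicate numbers and each genotype has 1 deposited library of each kind. The wild-type value at *gapdhs*, and the ratio made from it, rest on 10 tags.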
